A study of Mus musculus with 4 samples.

Results

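A group of 9 genes that are tied to T cell anergy was followed in Tc17 cells, CD8+ T cells that make IL-17, and in CTLs (cytotoxic T lymphocytes). It held the ubiquitin ligase genes *Cbl*, *Cblb*, *Itch*, *Rnf128* and *Peli1*, the adaptor genes *Ndfip1* and *Ndfip2*, and the diacylglycerol kinase genes *Dgka* and *Dgkz*. They were chosen by name, with earlier results of these data known, and were found through the platform annotation of the array. They are 9 of the 19938 genes that had a probe set of their own. The 9 genes had 11 probe sets, and the brightest one of each gene on average was used. The cells came from spleen and lymph nodes of WT C57BL/6 mice, adult and matched for sex and age per the study's methods, and were kept in culture for 2 days. Tc17 cultures received IL-2, IL-6, TGF-β and anti-IFN-γ, and CTL cultures received IL-2 and anti-IFN-γ, so IL-2 and the antibody were shared and IL-6 and TGF-β were not. Each group had 2 biological replicates, with 1 array each. The labels name no stimulus of the T cell receptor for these cultures. The study's methods prime Tc17 cells with plate-bound anti-CD3 and soluble anti-CD28, and describe no CTL culture. Whether each replicate was a separate animal is not stated in the labels. P-values therefore measure no more than the spread between these samples, which may be technical. In limma's standard errors and p-values that spread is pooled in part over all genes tested. Both groups are populations polarised in culture, in which fewer cells of a type and less RNA per cell cannot be told apart.

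Anergy is a state in which a T cell that met antigen without costimulation answers poorly when it meets that antigen again. CBL-B, ITCH and GRAIL (the product of *Rnf128*) are E3 ubiquitin ligases that mark signaling proteins of the T cell receptor pathway for degradation or altered traffic, and NDFIP1 and NDFIP2 recruit and activate ITCH and its relatives. Diacylglycerol kinases convert diacylglycerol, the lipid that recruits RasGRP1 and protein kinase C-θ, into phosphatidic acid and so end its signal. Both arms are known as brakes on T cell activation, and PELI1 is a further ligase that restrains T cells through the NF-κB subunit c-Rel.

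Values were RMA intensities taken as log2, from 1.18 to 13.70, with array medians between 3.18 and 3.20. The groups differed in the cytokine genes that define them. *Il17f* stood at 9.22 and 8.70 in Tc17 cells, against 2.94 and 3.35 in CTLs, and *Ifng* at 5.91 and 6.24 in Tc17 cells, against 10.57 and 10.08 in CTLs. All 7 CD8 T cell markers had values far above the array medians. Their mean level was 9.40 and 9.44 in Tc17 cells, against 9.003 and 9.02 in CTLs, and *Cd8a*, *Cd3d*, *Cd3e* and *Cd3g* were among the genes higher in Tc17 cells, while *Cd2* was lower. Whether this shift of T cell markers had a part in the results was not tested. Of the other cell types, the mean of the 6 myeloid markers was 3.04 and 2.87 in Tc17 cells, against 2.85 and 2.87 in CTLs, with *Lyz2*, *Cd14* and *Adgre1* too dim to test. *Cd68* was the 1 gene of the 3 tested to pass, at 5.32 and 4.89 in Tc17 cells, against 4.28 and 3.91 in CTLs. The B cell markers averaged 3.23 and 3.24 in Tc17 cells, against 3.44 and 2.97 in CTLs, and *Cd4* stood at 3.28 and 2.83 in Tc17 cells, against 3.21 and 2.92 in CTLs.

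*Dgka* and *Peli1* rose in Tc17 cells, by 1.45 ± 0.14 and 0.97 ± 0.13 on the log2 scale (difference ± limma's moderated standard error, n = 2 per group). *Itch* lay higher in both Tc17 arrays but missed the threshold, and *Cbl*, *Cblb*, *Ndfip1*, *Ndfip2* and *Dgkz* differed by less than 0.25 in either direction. *Rnf128* was too dim to test. A gene was called where limma's adjusted p, with Benjamini-Hochberg adjustment over 14953 genes, was under 0.05. Of the 8 members tested, 2 rose, 0 fell and 6 did not pass, so that 25% were called higher, against 8.22% of all genes tested. The share of all genes called was 15.7% in either direction and 7.44% lower in Tc17 cells. The median difference of the 8 members was 0.17, against 0.02 over all genes tested. The members were few, and were chosen by name with earlier results of these data known. These shares therefore describe them and were not set against chance. The 8 tested members had levels between 6.04 and 9.85 in every array, well above the minimum mean level for a test of 2.59. All genes tested, the base of these shares, were not matched to the members in brightness. In the plot of levels by array the members differ far more in brightness than in their change between groups, and the brightness of different probe sets is not comparable.

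**Figure D1:**
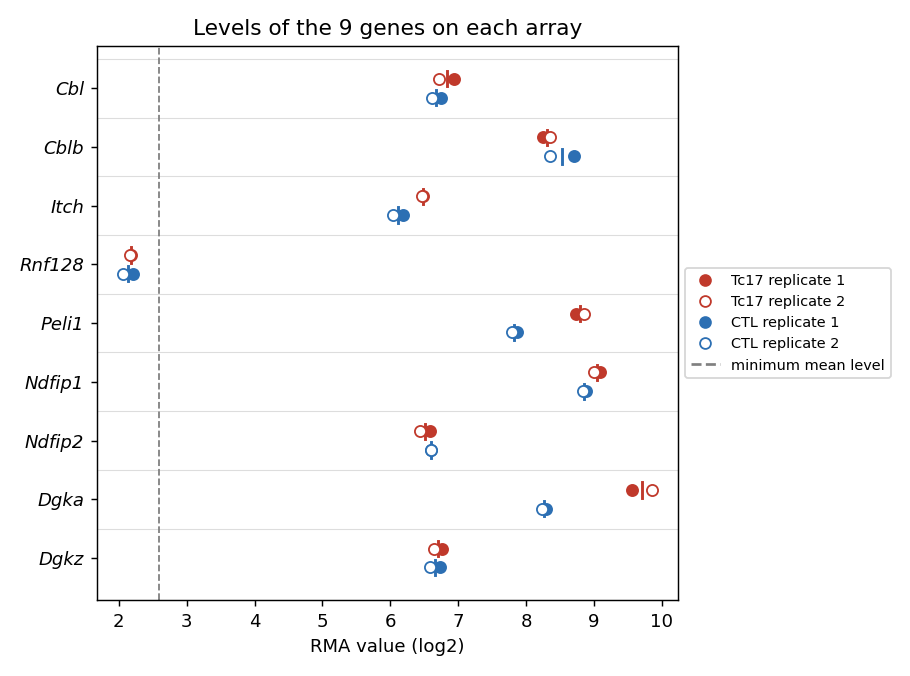
Log2 RMA level of each of the 9 genes (horizontal axis) in the Tc17 arrays (upper pair of each row) and the CTL arrays (lower pair), each point 1 array, with a bar at the mean of each group of 2 and a dashed line at the minimum mean level for a test of 2.59. *Dgka*, at 9.57 and 9.85 in Tc17 cells and 8.29 and 8.23 in CTLs, shows the widest gap, and *Rnf128* lies left of the line in all 4 arrays.

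DGKα, the product of *Dgka*, is one of the main kinases that remove diacylglycerol in T cells. *Dgka* had levels of 9.57 and 9.85 in Tc17 cells, against 8.29 and 8.23 in CTLs. Both Tc17 arrays were clearly above both CTL arrays, and the distance between the groups was several times that between replicates. The group means were 9.71 ± 0.20 in Tc17 cells and 8.26 ± 0.05 in CTLs (SD, n = 2 each). The difference of 1.45 ± 0.14 corresponds to a 2.73-fold higher level in Tc17 cells, with a 95% interval of 1.14 to 1.75 on the log2 scale and a limma adjusted p of 4.99e-05. Taken array by array, the 4 differences between a Tc17 and a CTL array ran from 1.27 to 1.62. *Dgka* was past the threshold in every alternative setting run, with differences of 1.31 to 1.59 when an array was left out. In the whole comparison, 107 of the called genes had a larger increase than *Dgka*, and 1.9% of all genes tested were, like it, called and at least 2-fold higher in Tc17 cells.

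DGKζ, the product of *Dgkz*, is the other diacylglycerol kinase best known for restraining T cell receptor signals. *Dgkz* had levels of 6.76 and 6.64 in Tc17 cells, against 6.73 and 6.58 in CTLs. The groups overlapped, and the replicates of a group lay further apart than the group means. The difference was 0.04 ± 0.13, with a 95% interval of -0.25 to 0.33 and a limma adjusted p of 0.888. Its sign was not stable, since it turned slightly negative when the first Tc17 array or the second CTL array was left out (-0.019 and -0.029). A dimmer probe set of *Dgkz* gave 3.60 and 3.40 in Tc17 cells, against 3.38 and 3.76 in CTLs, and it too showed overlapping groups.

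The contrast between the kinases was also read within each array, as the log2 value of *Dgka* minus that of *Dgkz*. It was 2.81 and 3.21 in Tc17 cells, against 1.57 and 1.65 in CTLs, a shift of 1.40. Both Tc17 arrays had the wider distance between the probe sets. As *Dgkz* itself differed by 0.04, the shift is close to the 1.45 of *Dgka* and is no separate result. A two-sided exact permutation test of 2 against 2 arrays gave p = 0.333, the smallest value that this design allows, so no such value could pass a threshold of 0.05. The level of one probe set over the other says nothing of how many transcripts of each gene there were, and only its shift between groups is used here.

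PELI1 is a RING-like ligase that, in T cells, marks c-Rel for degradation. *Peli1* had levels of 8.74 and 8.86 in Tc17 cells, against 7.87 and 7.79 in CTLs. Both Tc17 arrays stood above both CTL arrays, with replicates close to each other in each group. The means were 8.80 ± 0.09 in Tc17 cells and 7.83 ± 0.06 in CTLs (SD, n = 2 each). The difference of 0.97 ± 0.13 was a 1.96-fold higher level in Tc17 cells, with a 95% interval of 0.69 to 1.26 and a limma adjusted p of 0.000444. Single Tc17 arrays exceeded single CTL arrays by 0.87 to 1.07. The call held in each alternative setting, with differences of 0.91 to 1.03 when an array was left out, and 303 called genes had a larger increase. *Rel*, which encodes c-Rel and was looked up after its values were seen, fell by 0.60 in Tc17 cells (limma adjusted p = 0.00824). The call of *Rel* was lost without the first CTL array (-0.54) and with every row of the table tested (limma adjusted p = 0.0866). This is an RNA level, and c-Rel protein and its degradation were not measured.

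**Figure D2:**
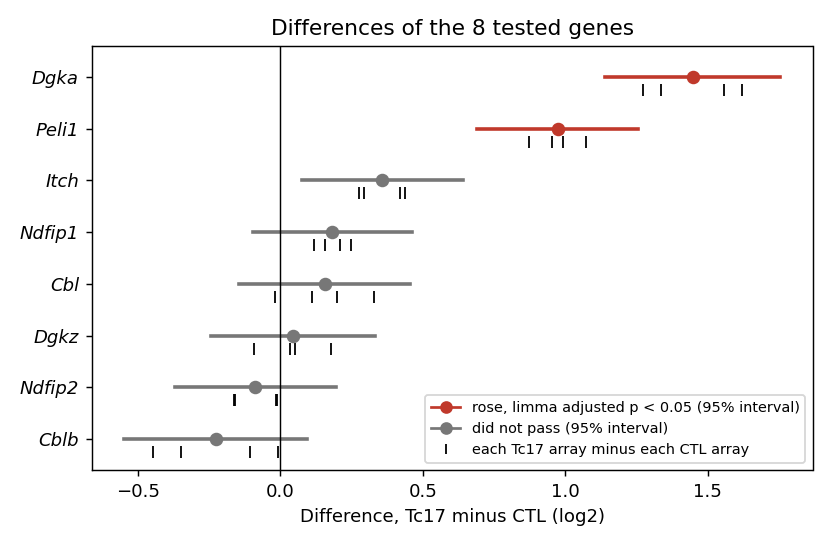
Difference between Tc17 cells and CTLs for each of the 8 tested genes on the log2 scale (horizontal axis), with the fitted difference as a point, its 95% interval as a line and the differences between single arrays as short ticks. The intervals of *Dgka* (1.14 to 1.75) and *Peli1* (0.69 to 1.26) lie well to the right of 0, and that of *Itch* (0.08 to 0.64) lies above 0 although its adjusted p missed the threshold.

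The stretches before the start sites of *Dgka* and *Peli1*, the members that rose, are shown to let their letters be compared. Of the 4 *Dgka* windows in RefSeq, the 2 with the most motif matches are printed, a choice made after the matches were seen. The third, chr10:128744077-128744326, held 1 NFAT core and the last, chr10:128743879-128744128, held 0 matches to any motif. The stretches are the 250 bases upstream of a RefSeq start site in GRCm38.p6, 5′ to 3′ on the strand of the gene, with capitals at matches to an NFAT core (GGAAA) or a FOXO core (TGTTTA), on either strand.
Dgka chr10:128737613-128737862 (-): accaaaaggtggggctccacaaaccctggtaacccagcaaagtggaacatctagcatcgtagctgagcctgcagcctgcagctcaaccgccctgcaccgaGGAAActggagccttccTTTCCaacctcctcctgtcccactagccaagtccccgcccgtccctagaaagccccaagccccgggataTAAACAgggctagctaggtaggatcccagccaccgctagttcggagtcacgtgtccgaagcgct
Dgka chr10:128745085-128745334 (-): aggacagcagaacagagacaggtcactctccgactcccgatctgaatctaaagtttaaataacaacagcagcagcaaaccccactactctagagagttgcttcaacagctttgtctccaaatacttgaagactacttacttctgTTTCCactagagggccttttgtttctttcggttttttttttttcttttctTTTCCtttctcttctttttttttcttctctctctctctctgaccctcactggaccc
Peli1 chr11:21091074-21091323 (+): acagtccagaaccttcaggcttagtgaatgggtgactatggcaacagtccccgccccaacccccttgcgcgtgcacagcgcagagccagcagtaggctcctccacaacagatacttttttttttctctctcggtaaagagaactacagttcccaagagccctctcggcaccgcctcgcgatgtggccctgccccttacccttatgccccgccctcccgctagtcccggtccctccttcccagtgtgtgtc

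NFAT is the factor that calcium signals bring to the nucleus in anergic T cells, and FOXO factors are active where PI3K signals are low. The first *Dgka* window printed held NFAT cores at 150 and 133 bases and a FOXO core (as TAAACA, its reverse complement) at 64 bases before the start site, and the second one printed held NFAT cores at 106 and 56 bases. The *Peli1* window held no match to any motif searched. RefSeq windows were read for 7 of the 9 genes, 11 windows in all, and 8 of those 11 held an NFAT core. *Itch* had no RefSeq window and *Ndfip1* was left out of the reading, so the counts do not cover them. The *Dgka* windows chr10:128743879-128744128 and chr10:128744077-128744326 overlap, so the windows are not all separate. The NFAT core is short and stood in 55.6% of 32851 mouse windows of the same length. The FOXO core, chosen after the sequences were seen, stood in 1 of the 11 windows and in 12.0% of all windows. An EGR site (GCGTGGGCG or GCGGGGGCG) was found in 1 of the 11 windows, that of *Cbl*, and in 3.06% of all windows. Matches to FOXO (TGTTTAC), AP-1 (TGANTCA), STAT (TTCCNGGAA) and SMAD (GTCTAGAC) motifs were found in 0 of the 11 windows, against 3.17%, 6.75%, 0.913% and 0.167% of all windows. Each motif was searched on both strands, and a match is a match of letters, with no measurement of binding.

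ITCH is a HECT ligase that targets JunB, phospholipase C-γ1 and protein kinase C-θ. *Itch* had levels of 6.48 and 6.47 in Tc17 cells, against 6.19 and 6.04 in CTLs. Both Tc17 arrays lay above both CTL arrays, with a narrower gap than for *Dgka* or *Peli1*. The difference was 0.36 ± 0.13 with a 95% interval of 0.08 to 0.64. The unadjusted limma p of 0.0177 became 0.0901 after adjustment over all genes tested, and over the alternative settings the adjusted p ran from 0.064 to 0.325, so the gene was called in none of them. With *Dgka* and *Peli1*, *Itch* was one of 3 members with an unadjusted p under 0.05, a level that 27.1% of all genes tested reached. *Junb*, a target of ITCH, differed by -0.08 (limma adjusted p = 0.810). *Plcg1* and *Prkcq*, which encode the other targets named, rose by 0.95 and 0.78 (limma adjusted p = 0.000763 and 0.00236). These are RNA levels, while ITCH acts on the proteins, which were not measured.

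The adaptors NDFIP1 and NDFIP2 sit in intracellular membranes and open ITCH and related ligases for catalysis. *Ndfip1* had levels of 9.09 and 8.99 in Tc17 cells, against 8.88 and 8.84 in CTLs. The Tc17 arrays were the higher ones, but the nearest arrays of the groups were only 0.12 apart. Its difference was 0.18 ± 0.13, with a 95% interval of -0.10 to 0.46 and a limma adjusted p of 0.413. *Ndfip2* had levels of 6.58 and 6.43 in Tc17 cells, against 6.60 and 6.59 in CTLs. Its Tc17 arrays were lower, but the higher of them differed from the lower CTL array by only -0.013. Its difference was -0.09 ± 0.13, with a 95% interval of -0.37 to 0.19 and a limma adjusted p of 0.739. A second, dim probe set of *Ndfip2* gave 2.68 and 2.56 in Tc17 cells, against 2.94 and 2.76 in CTLs. Within arrays the distance *Ndfip1* minus *Ndfip2* was 2.51 and 2.56 in Tc17 cells, against 2.28 and 2.24 in CTLs, a shift of 0.27 with an exact permutation p of 0.333, two-sided.

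CBL and CBL-B are RING ligases that act on tyrosine kinases and adaptors close to the T cell receptor, and CBL-B sets the need for CD28 costimulation. *Cblb* had levels of 8.25 and 8.35 in Tc17 cells, against 8.70 and 8.36 in CTLs. Both Tc17 arrays were lower, but the higher Tc17 array and the lower CTL array were only 0.01 apart, and the CTL replicates lay further apart than those of either group for the other 7 tested members. The difference was -0.23 ± 0.15, with a 95% interval of -0.55 to 0.09 and a limma adjusted p of 0.372. It came to -0.06 without the first CTL array and -0.40 without the second, and missed the threshold both times. *Cbl* had levels of 6.94 and 6.72 in Tc17 cells, against 6.74 and 6.61 in CTLs, with overlapping groups. Its difference was 0.15 ± 0.14, with a 95% interval of -0.14 to 0.45 and a limma adjusted p of 0.539. The within-array distance *Cbl* minus *Cblb* was -1.31 and -1.63 in Tc17 cells, against -1.96 and -1.75 in CTLs, a shift of 0.38 with an exact permutation p of 0.333, two-sided. These were 3 pairs in all. An exact permutation p of 0.333 means only that the groups did not overlap, as was so for 54.4% of all single genes tested. The share over other pairs of genes was not computed.

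GRAIL is a membrane-bound RING ligase of endosomes, known from anergic CD4+ T cells. *Rnf128* had levels of 2.18 and 2.17 in Tc17 cells, against 2.21 and 2.07 in CTLs, all under the lowest array median of 3.18. The groups overlapped. The gene was under the minimum level and was not tested in the comparison. With no minimum its difference was 0.04 ± 0.12 and its limma adjusted p 0.922. The table has no detection calls, so whether the transcript was present at all cannot be read from these values.

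Across the 8 tested members, the groups did not overlap for 6, with Tc17 higher for *Dgka*, *Peli1*, *Itch* and *Ndfip1* and lower for *Cblb* and *Ndfip2*. With 2 arrays a group this is frequent, and 54.4% of all genes tested had groups that did not overlap (29.6% higher and 24.8% lower in Tc17 cells). The intervals of the 6 members that missed the threshold allow differences of up to 0.64 higher (*Itch*) and 0.55 lower (*Cblb*) in Tc17 cells, and these genes are not shown to have equal levels. The plot of differences by setting shows the 2 called members apart from the others in each of them.

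**Figure D3:**
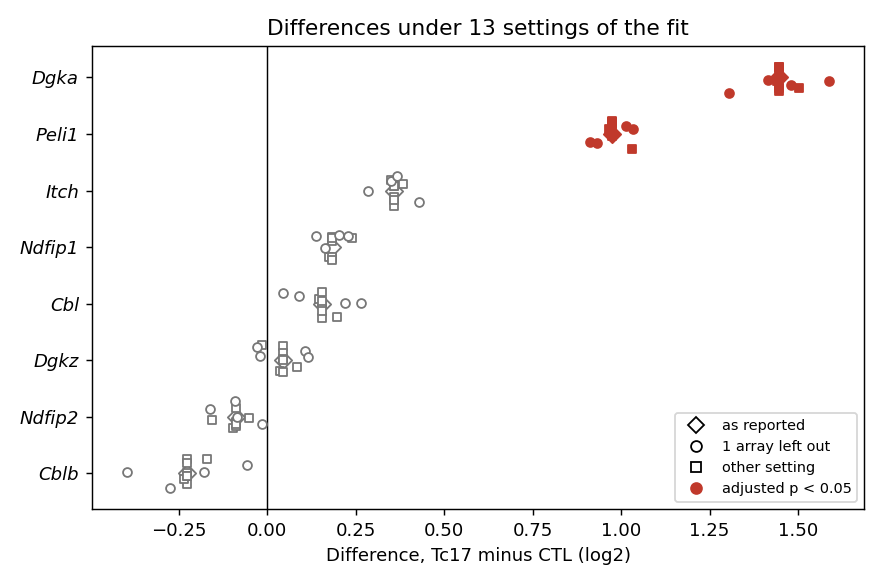
Log2 difference of Tc17 cells over CTLs (horizontal axis) for the 8 tested genes in the main comparison and under the 12 alternative settings, with diamonds for the main comparison, circles where an array was left out, and filled symbols where the adjusted p was under 0.05. *Dgka* (1.31 to 1.59 with an array left out) and *Peli1* (0.91 to 1.03) were called in each setting, and no other member in any.

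The members' relatives and partners were read from lists written with earlier results of these data known, which share genes with the members and with each other. Called shares of the lists are to be read beside the 15.7% of all genes tested that were called (8.22% higher and 7.44% lower in Tc17 cells). The lists and all genes tested were not matched in brightness. Of 11 genes of the CBL family and its partners, 3 rose and 0 fell, with a median difference of 0.21. *Ubash3b*, which encodes the phosphatase STS-1, rose by 1.46 ± 0.14 with group means of 6.43 in Tc17 cells and 4.97 in CTLs (limma adjusted p = 6.05e-05). *Sh3kbp1*, which encodes the CBL-binding adaptor CIN85, rose by 0.45, and *Ubash3a*, which encodes STS-2, rose by 0.51 ± 0.13 (limma adjusted p = 0.0240). The call of *Ubash3a* was lost without the second Tc17 array (0.40), the first CTL array (0.47) or the second CTL array (0.55), and each of these fits left 1 called gene in the list, as did the fit on all rows of the table. *Sh3kbp1* was not called when any 1 of the 4 arrays was left out (0.39 to 0.51). Of the 9 NEDD4 family HECT ligases, to which ITCH belongs, 4 rose and 0 fell, or 44.4% called against 15.7% of all genes tested, with a median of 0.36. With every row of the table tested, 1 of the 9 was called. *Wwp1* rose by 0.92 ± 0.13 (limma adjusted p = 0.000645), and *Smurf2*, which encodes a ligase for TGF-β pathway proteins, rose by 0.72 ± 0.15 (limma adjusted p = 0.00589). With its probe sets averaged, *Smurf2* rose by less, 0.49 (limma adjusted p = 0.0233). *Smurf1* and *Wwp2* rose by 0.62 and 0.55. Without the first CTL array *Smurf2* was not called (0.57), and *Smurf1* was not called without the second (0.52). *Wwp2* was not called without the first Tc17 array (0.35) or either CTL array (0.60 and 0.50), and without either CTL array 2 of the 9 genes were.

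Of 18 tested genes for other T cell ubiquitin ligases, the 2 that rose were *Peli1* and *Birc2*, which encodes cIAP1 (0.96 ± 0.13, limma adjusted p = 0.000438). With its probe sets averaged, *Birc2* rose by less, 0.74 (limma adjusted p = 0.00288). Among 12 deubiquitinases 3 rose and 1 fell. *Tnfaip3*, which encodes A20, rose by 0.61 ± 0.15 (limma adjusted p = 0.0173) and *Cyld* by 0.58 ± 0.13 (limma adjusted p = 0.0101). *Usp21* differed by 0.43 and passed, but lost its call when any 1 array was left out, with trended robust moderation and with the replicate number as a block (limma adjusted p = 0.0556). *Tnfaip3* and *Cyld* lost their calls without the second Tc17 array (0.49 and 0.56) or the second CTL array (0.46 and 0.51), and in both fits, as with every row of the table tested, 0 deubiquitinases were called higher. *Usp18*, an interferon-induced protease for ISG15, was the deubiquitinase that fell, with means of 4.16 in Tc17 cells and 7.25 in CTLs.

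Of 7 tested diacylglycerol kinases, *Dgka* rose and *Dgkh* fell, with *Dgkh* at 3.94 in Tc17 cells and 4.52 in CTLs (-0.58 ± 0.14, limma adjusted p = 0.0154). *Dgkh* was not called without either Tc17 array (-0.58 each) or without the first CTL array (-0.44), while *Dgka* was. The other 5 kinases, *Dgkz* among them, had a difference between -0.31 and 0.20. Of 15 genes for makers and effectors of diacylglycerol, 4 rose and 1 fell, with a median of -0.10. *Plcg1*, which encodes the phospholipase C-γ1 that makes diacylglycerol below the T cell receptor, rose by 0.95 ± 0.14 (limma adjusted p = 0.000763), and *Prkcq*, which encodes protein kinase C-θ, rose by 0.78 ± 0.13 (limma adjusted p = 0.00236). *Prkch* and *Prkd2* rose by 0.65 and 0.64. With every row of the table tested, 1 of these genes was called higher. *Prkca*, which encodes protein kinase C-α, fell by 1.83 ± 0.17 (limma adjusted p = 3.36e-05). *Rasgrp1*, which couples diacylglycerol to Ras, differed by -0.33 (limma adjusted p = 0.133).

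In a list named for substrates of the ligases, 22 genes were tested. The name does not establish each entry, *Cd28* among them, as a direct substrate. Of the 22 genes, 9 rose and 4 fell, so 59.1% were called against 15.7% of all genes tested, with a median of 0.32. With every row of the table tested, 4 were called higher and 1 lower. *Jun* and *Cd28* had the largest increases of the list (1.32 ± 0.19 and 1.09 ± 0.13, limma adjusted p = 0.000848 and 0.000184). *Cd83* and *Cd274*, which encodes PD-L1, had the largest decreases (-2.29 ± 0.15 and -0.92 ± 0.17, limma adjusted p = 2.97e-06 and 0.00299). *Cd3e*, one of the CD8 T cell markers that stood higher in Tc17 cells, is on this list. Without the first CTL array 2 of these genes were called lower. Of 14 anergy-associated factors, 1 rose and 2 fell. *Nt5e*, which encodes CD73, rose by 4.40 ± 0.13 (limma adjusted p = 3.16e-08), *Nr4a3* fell by 1.63 ± 0.13 (limma adjusted p = 1.75e-05), and *Nrp1* fell by 0.83 ± 0.25 (limma adjusted p = 0.0409). The CTL arrays of *Nrp1* were far apart (4.62 and 3.65), and its difference was -0.35 without the first of them and -1.32 without the second. Its call was lost without the first Tc17 array (-0.93), the second Tc17 array (-0.74) or the first CTL array, which left 1 of these 14 genes called lower. It was also lost with no minimum level, trended robust moderation, median centring and every row tested, so that *Nrp1* was called in 6 of 13 settings (limma adjusted p from 0.000547 to 0.325). *Egr2* and *Egr3*, which encode factors that promote *Cblb* expression in anergic CD4+ T cells, differed by 0.39 and -0.13 and did not pass (limma adjusted p = 0.0785 and 0.592). In the plot of related lists, most genes of every list lie between -1 and 1.

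**Figure D4:**
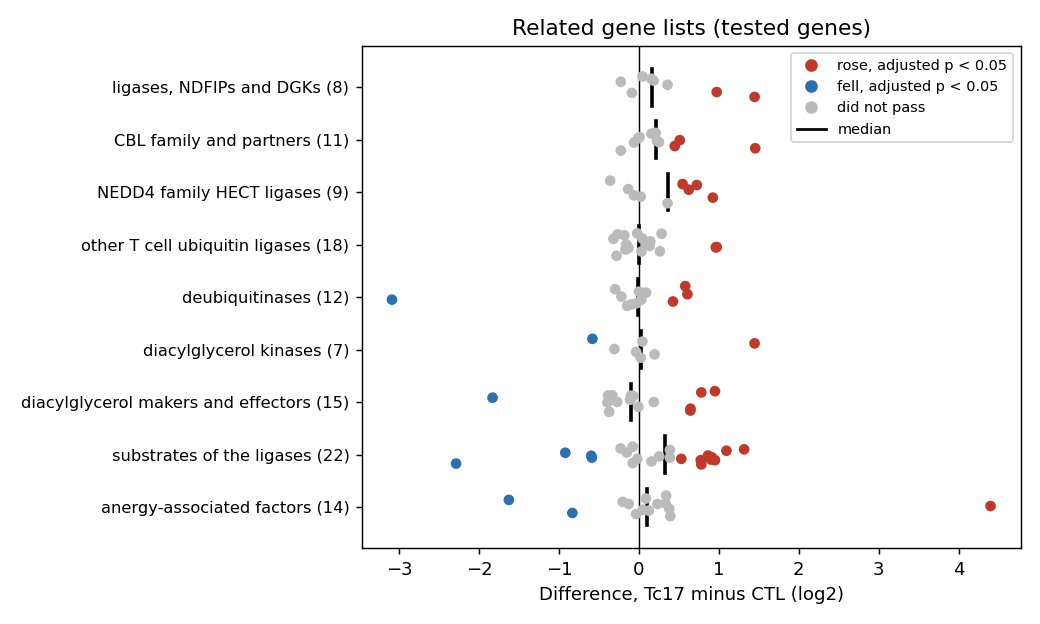
Log2 difference of Tc17 cells over CTLs (horizontal axis) for the tested genes of the 9 lists, each point 1 gene, with the median of each list as a black bar and the number tested in brackets. *Nt5e* (4.40) and *Usp18* (-3.09) lie furthest out, and *Dgka* (1.45) appears both among the members and among the diacylglycerol kinases.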

How the data were processed

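Per the labels, total RNA of CD8+ T cells was amplified in 2 cycles of cDNA synthesis, labeled with biotin and hybridised, 1 array per sample. The authors deposited intensities made with RMA (background correction, quantile normalisation and probe set summary). No version or log base is given in the sources used here, and the deposited values were taken as log2 from their range. Quantile normalisation hides a shift of all transcripts, and background compresses differences of dim probe sets.

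Of 35557 rows, the platform annotation paired 21789 with 1 gene symbol, 1621 with several and 12147 with none. Rows with 1 symbol were kept, and 21698 matched the RefSeq gene table. Genes with a mean under the 25th percentile of 2.59 (4985 of 19938) were left out. Tc17 minus CTL was fitted with lmFit and eBayes of limma 3.58.1 in R 4.3.3, two-sided and without pairing, and 2342 of 14953 genes were called (1229 higher and 1113 lower in Tc17 cells). The fit had 2 residual and 8.98 prior degrees of freedom, and the number of arrays limits the precision. The scripts were tested on simulated data.

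The members, the 8 related lists and the markers were chosen with earlier results of these data known. From each list the called genes that rose most (up to 2) and fell most (up to 2) were named, and others were named after their values were seen. Alternatives were no minimum level or one at the median, trended robust moderation, cyclic loess, median centring, averaged probe sets per gene, a fit on all rows, a replicate block, and each array left out, where the lone array is assumed to vary like the other group. Promoter sequences were from RefSeq, GRCm38.p6.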

Additional observations from a re-analysis of the deposited data

How the results depend on the processing

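Under all 12 alternatives *Dgka* and *Peli1* were the 2 members called, both higher in Tc17 cells. Of 97 alternative values for the members, 94 kept direction and side of the threshold and 3 turned sign, all of *Dgkz*, whose difference became -0.014 as the mean of its probe sets, -0.019 without the first Tc17 array and -0.029 without the second CTL array (range -0.029 to 0.12 with an array left out). Of 325 values with the genes named by rule from the lists included, 26 kept direction but lost the threshold. *Sh3kbp1*, *Smurf1*, *Wwp2*, *Usp21*, *Prkch*, *Prkd2*, *Rel* and *Cd3e* are not in that count, and each of them also lost its call under some setting. Genes called numbered 684 (419 higher and 265 lower in Tc17 cells) when every row of the table was tested, and in that fit *Ubash3a*, *Sh3kbp1*, *Smurf1*, *Smurf2*, *Wwp2*, *Cyld*, *Tnfaip3*, *Usp21*, *Dgkh*, *Prkcq*, *Prkch*, *Prkd2*, *Jun*, *Cd3e*, *Rel*, *Cd274* and *Nrp1* were among those not called; the cause was not tested. With an array left out they numbered 1421 to 1924, 834 to 948 higher and 587 to 976 lower, fewest without the second Tc17 array, and these fits have fewer samples. No shared effect of the replicate number was visible (correlation of same-numbered deviations across genes 0.0195). Whether same-numbered cultures belonged together is not stated in the labels. The replicate block gave 1213 genes higher and 1109 lower, with the same 2 members, while *Usp21* lost its call. Groups of 2 arrays are too small for a test of single outlying arrays.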

Other observations

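The genes whose values across the 4 arrays ran closest to those of *Dgka*, after each gene's mean was taken off, were *Acpp*, *Bach2* and *Vsir*, at root-mean-square distances of 0.0211, 0.0306 and 0.0360 on the log2 scale. *Bach2*, which encodes a transcriptional repressor that restrains effector differentiation, had levels of 7.54 and 7.81 in Tc17 cells, against 6.33 and 6.22 in CTLs. *Vsir*, which encodes the checkpoint protein VISTA, had levels of 7.24 and 7.54 in Tc17 cells, against 6.02 and 5.86 in CTLs. *Acpp*, which encodes a phosphatase, had levels of 4.22 and 4.56 in Tc17 cells, against 2.998 and 2.91 in CTLs. With 4 arrays in 2 groups, any gene with a similar difference and a higher second Tc17 array comes close, so the likeness describes these arrays.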
